A study of Mus musculus and synthetic RNA with 74 samples.

Results

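The 10 genes examined here in mouse embryos make, balance and break down polyamines or recover methionine from their by-product. They are Amd1, Amd2, Srm, Sms, Odc1, Azin1, Oaz1, Sat1, Smox and Mtap. They were chosen by name, and all 10 were found among the 20330 genes listed at E2.5 and among the 21199 listed at E3.5. The study asked which RNAs the methyltransferase METTL16 modifies and what its loss does to early embryos. Embryos came from crosses of Mettl16 heterozygous mice that carry 1 targeted allele, a cassette of stop codons in exon 3, made in the B6D2F1/J hybrid line and bred to C57BL/6JRj. Single embryos were 31 morulae at E2.5, of which 5 were WT, 14 HET and 12 KO, and 39 blastocysts at E3.5, of which 18 were WT, 9 HET and 12 KO, and poly(A) RNA of each was amplified with the Smart-seq2 protocol. A separate test tube experiment methylated a random library of short RNAs with recombinant METTL16 and compared 2 input with 2 m6A-IP libraries, where m6A-IP is precipitation with an antibody against N6-methyladenosine.

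The embryo values used here are the authors' means over all embryos of a stage. They mix the genotypes in different shares, 38.7% KO at E2.5 and 30.8% at E3.5, and 16.1% WT at E2.5 and 46.2% at E3.5. No value per embryo or per genotype enters, so these levels have no SD, no test and no comparison of KO with WT, 1 embryo could drive a mean, and neighbours in an order of levels cannot be told apart by their spread. Each stage was normalized by itself, with a total of means of 23557112 at E2.5 and 27145016 at E3.5, and stage, mix of genotypes and library preparation cannot be told apart. In whole embryos, fewer cells of a type and less RNA per cell cannot be told apart either.

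Polyamines are small positively charged molecules that bind RNA and are needed for growth. Ornithine decarboxylase makes putrescine, and spermidine and spermine synthases extend it with aminopropyl groups taken from decarboxylated S-adenosylmethionine (SAM), the same molecule that METTL16 uses as methyl donor. Each extension leaves methylthioadenosine, which MTAP cleaves as the first step of the salvage path back to methionine.

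METTL16 methylates an adenosine within a nonamer, TACAGAGAA in DNA letters, when it sits in a suitable fold. The known mRNA target is Mat2a, the gene of the enzyme that makes SAM. The nonamer was therefore looked for in the sense strand of all 10 genes (GRCm38), and the 30-base window that holds it at positions 12 to 20 was folded with RNAfold. It occurred 7 times, in 4 of the genes and in introns each time. The windows are shown because their predicted folds connect these genes to the test tube library. Capitals mark the nonamer, and the sequence is that of the RefSeq genome, 5′ to 3′ along the gene:

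Amd1 intron 1, chr10:40295436-40295465, minus strand: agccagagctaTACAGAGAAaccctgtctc

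Amd1 intron 1, chr10:40299518-40299547, minus strand: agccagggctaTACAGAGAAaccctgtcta

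Sms intron 1, chrX:157489435-157489464, minus strand: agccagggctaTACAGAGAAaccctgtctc

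Sms intron 9, chrX:157454236-157454265, minus strand: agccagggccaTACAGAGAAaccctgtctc

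Azin1 intron 1, chr15:38516927-38516956, minus strand: agccagggctgTACAGAGAAatcctgtcta

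Azin1 intron 11, chr15:38491990-38492019, minus strand: atgtaactacaTACAGAGAAatgtaactaa

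Mtap intron 1, chr4:89147285-89147314, plus strand: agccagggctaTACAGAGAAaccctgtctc

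The windows of Sms intron 1 and Mtap intron 1 are identical, and all but that of Azin1 intron 11 begin with the same 6 letters. The genome marks these 6 windows as repeat over 100% of their length, against 16.7% of the window in Azin1 intron 11. Among all genes, 54.6% of 20275 intronic nonamer windows were fully marked as repeat, and 16.4% of 834 exonic ones. The nonamer occurred in 35.7% of 24465 genes and in an exon of 3.29%. None of the 23 spliced RefSeq transcripts of the 10 genes held it. Mat2a held it 5 times in its last exon and was the 1 gene with at least 5 exonic copies. For comparison, 1 of these sites is shown, whose predicted fold closes a stem around the unpaired nonamer (in capitals).

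Mat2a exon 9, chr6:72433451-72433480, minus strand: cccttgtgataTACAGAGAAgtcacagggc

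The 7 intronic windows folded into 4 predicted structures, and all 4 were listed among the 36835 structures of the in vitro table. There, reads of the random RNAs were pooled by structure and scaled by each library's size factor by the authors, so the value is that of the fold and not of the genes' own RNA. Over the listed structures, the reads recovered from the values summed to 20454163 and 18106811 (input of reactions 11 and 12), 22118622 reads (m6A-IP of reaction 11) and 1154715 reads (m6A-IP of reaction 12). The last library was the shallowest, with a median of 6 reads per structure against 95 to 114 in the others.

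The fold shared by the second Amd1 site, both Sms sites and the Mtap site places the whole nonamer in a hairpin loop. In reactions 11 and 12 its normalized reads numbered 331 and 383 before precipitation (input) and 263 and 236 after it (m6A-IP). Both m6A-IP values were below both input values, as in 47.3% of all structures. The log2 difference was -0.51 (SE 0.17, adjusted p = 0.07 by limma over all structures), past the threshold of 0.1. This call was not kept with the reaction as a block (adjusted p = 0.11) or with libraries scaled to equal totals (adjusted p = 0.12).

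The first Amd1 site differs from the second by few letters, yet its predicted fold pairs the adenosine that can be methylated, at position 15, with position 25. Its structure had 81.4 and 73.1 normalized input reads, against 113 and 125 after m6A-IP, both above the inputs, as in 25.3% of all structures. The log2 difference was 0.59 (SE 0.18, adjusted p = 0.059), higher in both reactions. It lay above 85.6% of all structures. The paper concludes from this library and from single RNAs that the target adenosine has to be unpaired, with stems around it, unlike in this fold. The predicted free energy of this window was -3.00 kcal/mol, against -6.90 for that of the second Amd1 site. Methylation of the Amd1 RNA itself was not tested.

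The structure of the Azin1 intron 1 window, in which 2 nonamer positions pair, had 47.7 and 41.5 normalized input reads, against 21.6 and 20.8 after m6A-IP. Both m6A-IP values were below both inputs, with a log2 difference of -0.92 (SE 0.24, adjusted p = 0.042). The m6A-IP library of reaction 12 held 3 reads of it. The structure of the Azin1 intron 11 window, a short stem that is common in the random library, had 7703 and 7795 normalized input reads, against 6188 and 5295 after m6A-IP. Its log2 difference of -0.44 (SE 0.18) did not pass the threshold (adjusted p = 0.12). Of the 4 structures, then, 1 was enriched and 2 were depleted, where 12.5% of all structures were enriched and 27.2% depleted.

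**Figure D1:**
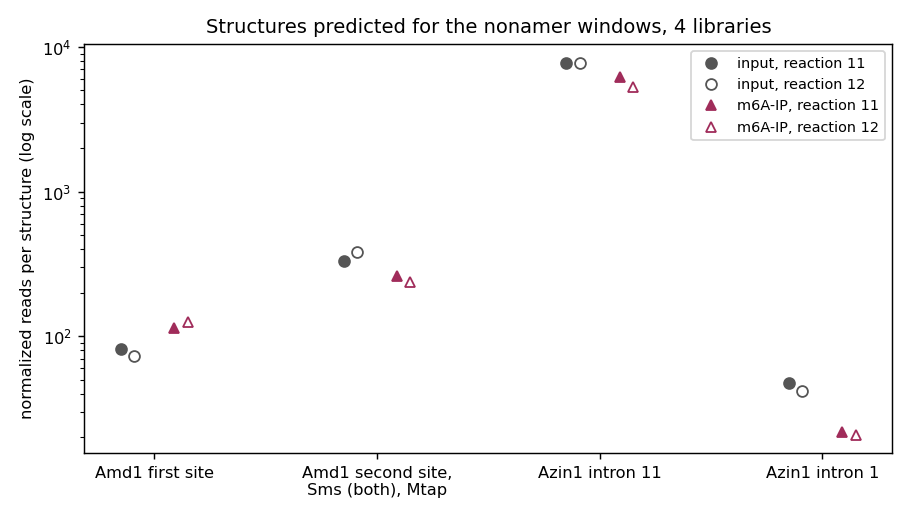
Normalized reads per structure (log axis) of the 4 predicted structures of the nonamer windows, in 2 input libraries (circles) and 2 m6A-IP libraries (triangles). The m6A-IP values lie above both inputs at the first Amd1 site and below both at the other structures, as they do in 25.3% and 47.3% of all structures.

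These differences rest on few libraries. The median log2 difference of all structures was -0.27, and relative to it the 4 structures stood at -0.24 (second Amd1, Sms and Mtap), 0.86 (first Amd1), -0.65 (Azin1 intron 1) and -0.17 (Azin1 intron 11). Without the input library of reaction 11 or without that of reaction 12, none of the 3 calls was kept (adjusted p from 0.38 to 0.66), and the Azin1 intron 11 structure passed without either m6A-IP library, each such fit assuming that the lone library varies like the pair in the other group. Scaled to equal totals, 8299 structures were enriched and 9130 depleted in place of 4621 and 10036, and edgeR on recovered reads called 13134 and 13124.

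The 10 genes covered a wide range of levels in the embryos. At both stages 7 of them were above the 90th percentile of all listed genes, and their summed means were 0.814% of the total at E2.5 and 0.32% at E3.5. Odc1, Oaz1 and Sat1 made up 80.3% of that sum at E2.5 and 73.6% at E3.5. The embryo identity of the material was visible in its markers: trophectoderm genes summed to 8071 at E2.5 and 83786 at E3.5, with Krt18 the most abundant at E3.5 (35173), while Tfap2c, the most abundant at E2.5, had 5278 and 1849. The epiblast and inner cell mass list summed to 12147 and 10569, with members in both directions, such as Nanog (552 at E2.5 and 4161 at E3.5) and Pou5f1 (9017 and 3527). The primitive endoderm list summed to 5009 and 5688, with Gata6 the most abundant at both stages (3569 and 3676) and members in both directions, such as Gata4 (1268 and 253) and Pdgfra (94.3 and 1575). Of 5 cumulus markers, Ptx3 was listed at neither stage and Has2 had a mean below 1 at both, while Amhr2 had a mean of 997 at E2.5 and 143 at E3.5. The blood markers summed to 59.4 and 27.8, and the oviduct markers to 383 and 288, with Ovgp1 at 320 and 25.3 and Krt7 at 62.8 and 262. The part of carried-over cells in the levels was not tested.

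**Figure D2:**
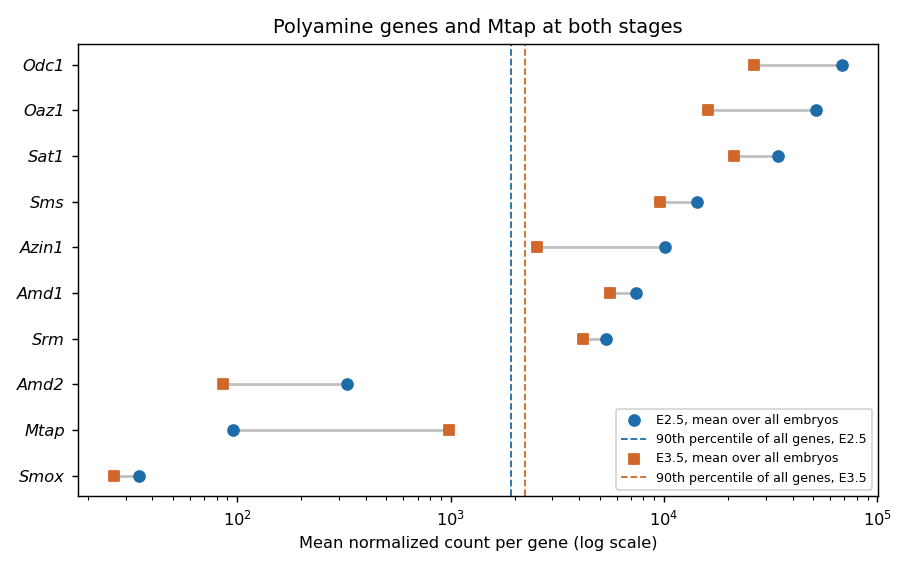
Mean normalized count of each gene over all embryos of a stage (log axis), E2.5 as circles and E3.5 as squares, with dashed lines at the 90th percentile of all genes. Odc1, Oaz1, Sat1, Sms, Azin1, Amd1 and Srm lie above the lines, and Mtap is higher at E3.5 while the other genes are lower.

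Odc1 (chr12:17544873-17551502), which encodes the enzyme that makes putrescine, had the highest mean of the 10, 68212 at E2.5 and 26382 at E3.5. Only 25 genes had a higher mean at E2.5, and 145 at E3.5. Of Odc1 windows of 80 bases, the longest read length, 24.5% also occur in other annotated genes, 10 in all, so its level can hold reads of these. Azin1 (chr15:38487430-38519266) encodes antizyme inhibitor, a relative of ornithine decarboxylase without its activity that binds antizyme. Its mean was 10145 at E2.5 and 2538 at E3.5.

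Oaz1 (chr10:80826656-80829290) encodes antizyme, which delivers ornithine decarboxylase to the proteasome. Its mean was 51603 at E2.5 and 16109 at E3.5. Per kb of transcript, so that genes of different length can be compared, Oaz1 stood above Odc1 by 1.79 times at E2.5 and 1.45 times at E3.5. Per kb of the last exon alone, Oaz1 had 36700 counts and Odc1 14052 at E2.5, against 6351 and 8595 at E3.5. Their order at E3.5 thus depended on the exons read. Full-length antizyme is made when ribosomes shift frame at a stop codon, where polyamines promote the shift. The window around it is shown because the exon table leaves out the skipped base. RefSeq annotates a ribosomal slippage there, and the skipped base (chr10, position 80828295) is the first letter of the TGA in capitals:

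Oaz1, chr10:80828280-80828309, plus strand: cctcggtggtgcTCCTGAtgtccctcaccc

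The table therefore lists as exons 2 and 3 what lies on each side of that base. Of Oaz1 windows of 80 bases, 44.8% also occur in the pseudogene Oaz1-ps, so reads of both can be mixed in its level.

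Amd1 (chr10:40287458-40302188) encodes SAM decarboxylase, which commits SAM to polyamines. Its mean was 7408 at E2.5 and 5557 at E3.5, and per kb Odc1 stood above it by 11.6 times at E2.5 and 5.98 times at E3.5. Per kb of the last exon alone, Odc1 had 14052 counts and Amd1 957 at E2.5, against 8595 and 602 at E3.5. The change of their ratio between the stages thus depended on the exons read. Amd2 (chr10:35708691-35711891), a single-exon copy, had a mean of 327 and 85.4. The pair cannot be separated safely, since 78.3% of Amd2 windows of 80 bases occur in Amd1 and 78.2% of Amd1 windows in Amd2. The means of reads counted directly on the Amd2 exon were 39.04 and 10.44, well under the Salmon estimates.

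Srm (chr4:148591513-148594619), spermidine synthase, had a mean of 5352 at E2.5 and 4168 at E3.5. Sms (chrX:157443954-157492046), spermine synthase, had 14313 and 9556. Per kb of transcript, the gene means of the synthases were close, 4030 for Srm and 4238 for Sms at E2.5, against 3139 and 2830 at E3.5. Their order thus turned between the stages, and without a spread no difference between these means can be read. Per kb of the last exon alone, Srm had 5143 counts and Sms 633 at E2.5, against 4349 and 532 at E3.5. Their order at E2.5 thus depended on the exons read.

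Polyamine breakdown was represented unequally. Sat1 (chrX:155213126-155216449), the acetyltransferase that marks spermidine and spermine for export or oxidation, had a mean of 34220 at E2.5 and 21363 at E3.5 and the highest level per kb of the 10 genes at E3.5, 16716. Smox (chr2:131491862-131525183), the oxidase that converts spermine back to spermidine, had the lowest mean, 34.8 and 26.5, near the median gene of each stage (36.4 and 51.6). Mtap (chr4:89137370-89181090) had a mean of 95.2 at E2.5 and 979 at E3.5.

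Set side by side as shares of each stage's total, 8 of 9 genes with a mean of at least 100 at either stage were lower at E3.5, and Mtap was higher. Their median log2 ratio of E3.5 to E2.5 was -0.88, where the 10002 genes that passed the same floor had a median of 0.40 and 38.6% were below 0. Azin1 stood at -2.20, Amd2 at -2.14, Oaz1 at -1.88, Odc1 at -1.57, Sat1 at -0.88, Sms at -0.79, Amd1 at -0.62 and Srm at -0.57. Relative to the median gene these values run from -2.60 (Azin1) to -0.96 (Srm). The Amd2 ratio cannot be separated safely from that of Amd1, and its directly counted exon means, 39.04 and 10.44, were below the floor of 100. Mtap was 8.93-fold higher at E3.5 (log2 3.16), above 92.9% of all genes. Coverage of 5′ exons was also lower at E3.5, as the exon counts show. From the last exon alone, as a share of all last exons, 7 of 8 genes were lower at E3.5, with log2 ratios of -2.81 for Oaz1, -1.29 for Azin1, -0.98 for Odc1, -0.94 for Amd1 and -0.52 for both Sms and Srm, and Sat1 between Azin1 and Odc1. Mtap stood at 3.31 and the median of 8232 genes at 0.44. The ratios of Azin1, Odc1, Sms and Srm were thus nearer to 0 than those of the whole genes. Those of Oaz1, Amd1, Sat1 and Mtap were farther from 0. The part of the coverage in the stage ratios was not tested further. The 3 oocyte markers were lower at E3.5 as well, with a sum of 1746 at E2.5 and 122 at E3.5. Zp3, a gene of the egg coat and the most abundant of them, had 1587 and 104 (log2 -4.13), Gdf9 had 108 and 16.6 (-2.91) and Bmp15 had 50.7 and 1.65 (-5.15). The part of RNA left from the oocyte in the values of the 10 genes was not tested.

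Genes that follow Mtap in the salvage path did not all share its direction. Mri1, which isomerizes the sugar phosphate that MTAP releases, had a mean of 371 at E2.5 and 665 at E3.5. Apip, the dehydratase of the next step, had 343 and 615. Got1, an aminotransferase that can complete the path besides its role in aspartate metabolism, had 2113 and 8235. Enoph1 had 2194 and 1482 and Adi1 had 1919 and 1610, so the later pair was lower at E3.5. Il4i1 was low at both stages (20.2 and 5.94). As shares of each stage's total, Mri1 and Apip stood at log2 0.64 each, Got1 at 1.76, Adi1 at -0.46 and Enoph1 at -0.77. The median gene stood at 0.40 and Mtap at 3.16.

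Further polyamine genes went in both directions between the stages. Paox, which oxidizes acetylated polyamines after Sat1, had a mean of 22.8 at E2.5 and 418 at E3.5. Agmat had 270 and 87.7. Sat2 had 172 and 26.4, and the antizyme gene Oaz2 had 2558 and 2247. Oaz3 and Azin2 had means under 100 at both stages.

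Hypusine, an amino acid built from spermidine, is found in the translation factor eIF5A. Eif5a had a mean above that of Odc1, 85176 at E2.5 and 39932 at E3.5. Dhps and Dohh, which make hypusine, had means at E2.5 of 1242 and 1602, and at E3.5 of 1294 and 943, while Eif5a2 had 66.2 and 4.87. Of 5 transport genes, Slc3a2 (11555 and 5906) and Atp13a3 (5414 and 2901) were above the 90th percentile at both stages. Atp13a2 (179 and 198), Slc18b1 (71.3 and 59.7) and Slc22a3 (1.84 and 0.318) were not. The means of Dhps and Atp13a2 were higher at E3.5, but their shares of the total were lower (log2 -0.15 and -0.06).

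The genes on the SAM side of the path had their own values. Mat2a had a mean of 29053 at E2.5 and 4664 at E3.5, a log2 ratio of -2.84 that was lower than that of any of the 9 genes. Ahcy, which clears S-adenosylhomocysteine, had 1376 and 5593. Mat2b had 1824 and 749, and Mettl16 had 778 and 670, in a mix of genotypes that differs between the stages.

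**Figure D3:**
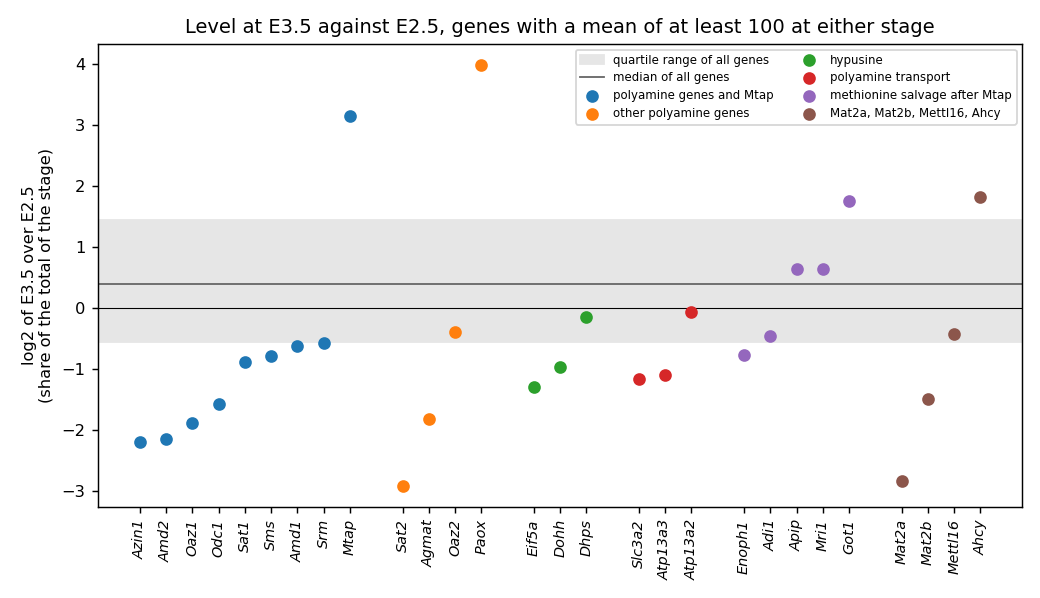
log2 ratio of E3.5 to E2.5 of the mean count as a share of the stage's total, for genes with a mean of at least 100 at either stage, by list. The band holds the genes between the quartiles (-0.56 to 1.45). All of the 9 polyamine and salvage genes but Mtap lie below it, with Amd1 at -0.62 and Srm at -0.57 just under its edge.

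The exon counts along each gene were compared between the stages as the count of the first exon in percent of that of the last, which removes the scaling of the stage. For Odc1, the first of 12 exons had a mean count of 6760 and the last 12591 at E2.5, or 53.7%. At E3.5 they had 299.8 and 7701, or 3.89%. The fall ran along the gene, since exon 6 had 10527 at E2.5 and 1769 at E3.5, and exon 11 had 13593 and 4632. Azin1 went from 77.2% to 10.3%, with 2461 and 162.1 in its first exon and 3188 and 1579 in its last.

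A lower share of 5′ exons at E3.5 was general in these tables. Of 7866 genes, 92.3% had a lower first over last ratio at E3.5, with a median of 30.7% at E2.5 and 8.51% at E3.5 and a median log2 change of -1.75. In 7 of the 8 genes that could be counted the ratio was lower at E3.5, with a median of -1.67. The log2 change was -3.79 for Odc1 (lower than in all but 6.2% of genes), -2.91 for Azin1, -2.09 for Mtap, -1.89 for Sms, -1.45 for Srm and -1.31 for Sat1. Among genes of similar length (the shorter at least 0.8 of the longer) the medians were -2.00 for Odc1, -2.24 for Azin1, -2.00 for Mtap, -2.17 for Sms, -1.10 for Srm and -1.05 for Sat1. Odc1, Azin1, Mtap, Srm and Sat1 thus lay below the median of their length and Sms above it.

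Oaz1 and Amd1 stood apart from this pattern in size. The first exon of Oaz1 had 6141 counts and the last 15414 at E2.5, or 39.8%, while at E3.5 they had 1582 and 2667, or 59.3%, a log2 change of 0.57 that was above 95.8% of genes and above the median of 770 genes of similar transcript length, -0.85. Amd1 went from 10.8% to 8.11%, a change of -0.42 above 86.9% of genes and above the median of its length, -2.15, with 208 and 1926 counts at E2.5, against 98.2 and 1211 at E3.5. Within Amd1, exon 7 nevertheless had more counts at E3.5 (978) than at E2.5 (756), while exons 1 to 6 and 8 had fewer. In Sms, exons 9 and 10 had 1146 and 1211 counts at E2.5, against 1485 and 1728 at E3.5, and its other 9 exons had fewer at E3.5. Of Sms windows of 80 bases, 31% also occur in Sms-ps. RNA quality and the place where amplification starts were not tested as the source of these profiles.

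**Figure D4:**
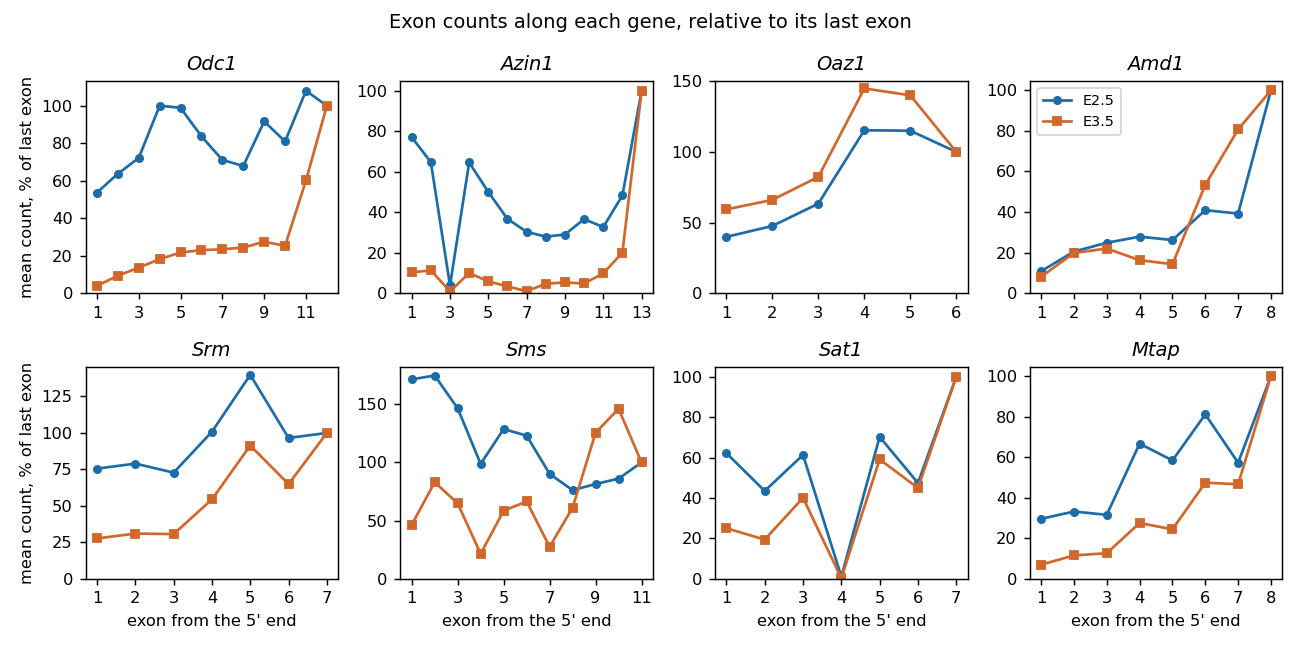
Mean count of each exon, numbered from the 5′ end, in percent of the last exon of the gene, for E2.5 (circles) and E3.5 (squares). The E3.5 line starts below the E2.5 line in 7 of 8 genes, from 53.7% to 3.89% in Odc1, and above it in Oaz1. Among the dips are exon 3 of Azin1 and exon 4 of Sat1 at both stages.

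Within a gene, coverage per kb differed between exons, and a read that overlaps an edge also counts, which weighs more on short exons, so densities are best read within an exon. At E2.5 the densest exon of Amd1 was exon 5 (43 bases), at 6.73 times the density of all its exons together, and the least dense was exon 1 (440 bases), at 0.271 times. At E3.5 exon 7 was the densest, at 5.27 times, and exon 1 again the least dense, at 0.188 times. In Odc1 the least dense exon was the last at E2.5 (0.287 times) and the first at E3.5 (0.0957 times). In Sms it was the last at both stages (0.119 and 0.19 times), and the densest was exon 3 at E2.5 (4.12 times) and exon 9 at E3.5 (6.62 times). In Oaz1 neither changed, with exon 5 the densest (2.99 and 2.95 times) and exon 1 the least dense (0.356 and 0.43 times). In Azin1 the densest was exon 2 at E2.5 (137 bases, 3.95 times) and exon 12 at E3.5 (215 bases, 2.51 times). In Srm, exon 6 was the densest (1.57 and 1.75 times) and exon 1 the least dense (0.551 and 0.335 times) at both stages. The densest exon of Mtap was exon 5 at E2.5 (3.17 times) and exon 7 at E3.5 (3.5 times). Smox had at most 14.5 mean counts on any exon, too few to compare.

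Of exons that some RefSeq transcripts skip, those of Sat1 and Azin1 were covered little beside their neighbours. Sat1 has a 110-base exon (exon 4, chrX:155215121-155215230) whose inclusion breaks the reading frame, since its length is not a multiple of the codon, and transcripts with it are known to be degraded. Its mean count was 202 at E2.5 and 30.7 at E3.5, while its neighbours had 11691 and 13395 at E2.5, then 4635 and 6834 at E3.5. This is 1.61% and 0.535% of the mean of the neighbours. Exon 3 of Azin1 (160 bases, chr15:38507187-38507346) had 121 and 13.4, or 5.85% and 7.96% of its neighbours. The 6 such exons of Smox ranged from 11.4% to 158% of their neighbours at E2.5 and from 9.14% to 96.2% at E3.5, at 14.5 mean counts or fewer.

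Counts on introns, which can stem from unspliced RNA, were low in most of these genes. Per kb, all introns of a gene together had a median of 0.76% of the density of its exons at E2.5 (8700 genes with an exon sum of at least 100) and 1.41% at E3.5 (9194 genes). Of the 8 genes counted, 7 were below the median at each stage. Oaz1 (0.112% and 0.289%) and Odc1 (0.149% and 0.435%) were among the lowest, with Mtap (0.205% and 0.177%) and Sms (0.25% and 0.358%). Azin1 (0.336% and 0.983%) and Srm (0.421% and 0.754%) followed. Sat1 was above the median at E2.5 (0.946%) and below it at E3.5 (0.725%), and Amd1 the reverse (0.653% and 1.6%). Smox did not reach the floor.

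**Figure D5:**
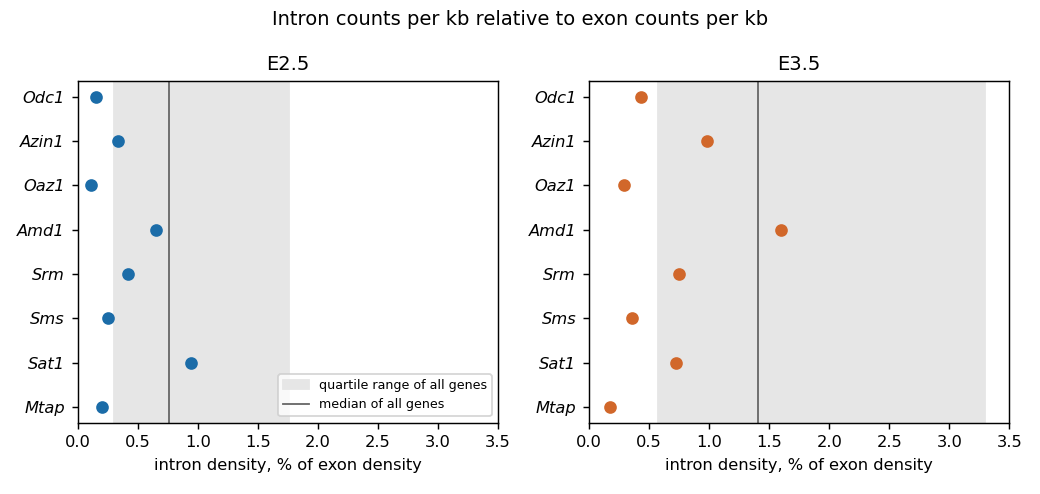
Intron count per kb in percent of exon count per kb for 8 genes at E2.5 (left) and E3.5 (right), with the median (line) and quartiles (edges of the band, 0.3 to 1.76% and 0.572 to 3.3%) of all genes. Sat1 at E2.5 and Amd1 at E3.5 are the points to the right of the median.

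Of the 70 introns, 3 reached 0.1 of the exon density of their gene, at E3.5 each time and at E2.5 in no case. Among all introns of genes with an exon sum of at least 100, 3.1% reached 0.1 at E2.5 and 6.1% at E3.5. The 70 introns include those of Smox, which is under that floor. Amd1 intron 7, its last (648 bases, chr10:40289470-40290117), had a mean count of 18.7 at E2.5 and 108 at E3.5, or 0.0165 and 0.141 of the exon density. It lies between exon 7, whose count was higher at E3.5, and the last exon. Amd1 intron 6 (104 bases, chr10:40290274-40290377) had 9.51 and 16.5, or 0.0524 and 0.134. Srm intron 6 (81 bases, chr4:148594206-148594286) had 27.4 and 44.2, or 0.0395 and 0.125. Of introns under 150 bases in genes with an exon sum of at least 100, 9.02% reached 0.1 at E2.5 and 11.7% at E3.5. The libraries are not strand-specific, so reads from the other strand would count here too. Intron densities are per kb of the full intron, although counts were trimmed by 10 nt at its ends. This understates short introns most. Smox introns 4 and 5 stood just under the rule at E3.5 (0.094 and 0.0994), with mean counts of 0.188 and 1.23.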

How the data were processed

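Samples were grouped by their titles, and the members and gene lists were chosen with earlier results of these data known. For the embryos, the authors assigned reads to RefSeq transcripts (mm10) with Salmon 0.7.2, summed them to genes, aligned reads with STAR, counted exons and introns (10 nt trimmed at intron ends) with featureCounts, and normalized with DESeq2 1.18.1. The signal deposited is the mean normalized count over all embryos of a stage. The embryo tables also hold the authors' log2 fold changes between genotypes and adjusted p-values, and the in vitro table holds those of m6A-IP over input. None of these were used. These tables hold no read totals per embryo, and depth per embryo was not used here. In vitro, the authors kept 30-nt reads with the nonamer in place (cutadapt 1.9.1), folded them with RNAfold, and deposited reads per structure divided by size factors as a signal. The filter that leaves the structures listed is not given in the sources used here.

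Levels were taken as a share of the stage's total or per kb of the longest RefSeq transcript, and described with no test. In vitro signals were tested with limma 3.58.1 (R 4.3.3) on log2(value + 5) with a mean-variance trend and Benjamini-Hochberg adjustment over 36835 structures at 0.1. The fold scale of log2(value + 5) understates changes of low structures. Divided by the step between values, 100% of the values were whole within 0.1 reads, and edgeR 4.0.16 was run on these reads as an alternative. Input and m6A-IP libraries with the same number share a reaction, as part of each reaction was kept as input. Deviations of libraries of the same reaction from their group means had a correlation of 0.02 over 33541 structures. Reactions were run in duplicate by the authors, so p-values measure the spread between 2 reactions. On simulated data with known changes, limma was checked first. Genes named are the 10 members and those of the pathway lists. A further 2 genes of these lists are not reported here. Marker lists are given by their sums with examples. Of introns, those at 0.1 or more of the exon density, and of structures, those of the members' nonamer windows, were named. Alternatives were other pseudocounts, filters, scalings, a replicate block and each library left out, and, for levels, other counts, lengths and floors. Windows were folded with RNAfold 2.7.2, and tables were handled in Python 3.11.15 with pandas 2.3.3.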

Additional observations from a re-analysis of the deposited data

How the results depend on the processing

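Other pseudocounts and a filter at a mean of 20 changed no call on the 4 structures. Scaled to equal totals, 8299 structures were enriched, and the structure of the second Amd1, Sms and Mtap sites (log2 -0.28, adjusted p = 0.12 by limma) lost its call while that of Azin1 intron 11 (-0.20, adjusted p = 0.014) gained one. edgeR on recovered reads called 13134 enriched and 13124 depleted structures, with Azin1 intron 11 past the threshold (-0.20, adjusted p = 1.4e-05). With the replicate block, the second Amd1, Sms and Mtap structure (-0.51, adjusted p = 0.11) was not called, and the other 2 calls were kept. Over the fits without 1 library, enriched structures numbered 855 to 11188 and depleted ones 1994 to 20642. The log2 difference ran from 0.52 to 0.67 for the first Amd1 structure, -0.61 to -0.41 for the second Amd1, Sms and Mtap structure, -1.01 to -0.83 for Azin1 intron 1 and -0.55 to -0.32 for Azin1 intron 11. The cause was not tested. Directions did not change in these alternatives.

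For levels and introns, each alternative count was within 1.5 times the first. The number above the 90th percentile at E3.5 was 6 among genes with a mean of at least 10 and 5 at 100. With an exon sum of at least 1000, 5 of 7 genes at E2.5 and 5 of 8 at E3.5 had intron densities below the median. Alternatives chosen after seeing the data gave 7 of 8 genes lower at E3.5 from exon counts, 7 of 8 from the last exon alone, 9 of 10 with a floor of 10 and 8 of 9 centred on the median gene, and 7 of 8 lower ratios with the second exon in place of the first.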
